A study of Mus musculus with 50 samples.

Results

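DBA/2J dorsal root ganglia are described here from their 2 arrays, 1 of males and 1 of females, out of 50 arrays of 25 inbred mouse strains. The members were taken by the strain label DBA/2J alone. They are set against the 44 arrays, again 1 male and 1 female each, of 22 other strains. The strains SM/J and PL/J were left out of the comparison because their labels were held to be doubtful. All animals were naive wildtype mice of 2 months, and each array carried ganglion RNA pooled from 3 mice of 1 strain and 1 gender. The 22 strains are 129S1/Sv1mJ, A/J, AKR/J, BALB/CByJ, BTBT T+tf/J, BUB/BnJ, C3H/HeJ, c57BL/6J, C57BR/cdJ, C58/J, CBA/J, FVB/NJ, KK/HIJ, MRL/MpJ, NOD/LtJ, NON/LtJ, NZO/HILtJ, NZW/LacJ, P/J, RIIIS/J, SJL/J and SWR/J, spelled as the labels give them.

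The dorsal root ganglion holds the cell bodies of the sensory neurons for touch, temperature, itch and pain, wrapped by satellite glia, with axons ensheathed by Schwann cells. Inbred strains are fixed for different alleles of many genes, so that 1 ganglion can be compared over many genetic backgrounds. DBA/2J is an old inbred strain, widely used in genetics, that is known for mutations in the pigment genes Tyrp1 and Gpnmb and for the pigmentary glaucoma they cause. The values are log2(intensity + 1) of the array's probe sets, called log2 intensity below. A difference is the DBA/2J mean minus the mean of the 22 other strain means, in log2 units.

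The DBA/2J arrays carried single markers of the ganglion's own cells at levels inside the range of the other strains. Prph, the peripherin of peripheral neurons, stood at 12.61 in DBA/2J males and 12.47 in DBA/2J females, and ranged from 12.02 to 12.80 in the other 44 arrays. Scn10a, a sodium channel of pain-sensing neurons, had 9.28 and 9.36 in DBA/2J, against 8.85 to 9.79 elsewhere. The glial genes Mbp and Fabp7 also lay inside the range of the other arrays. The mean over 31 Schwann cell genes, however, was 9.21 in the male DBA/2J array, above the others' highest of 9.14, and 9.00 in the female. The number of probe sets above a log2 intensity of 4 was 18926 and 19094 in DBA/2J, against 18703 to 19327 in the others, and the actin and Gapdh 3' to 5' differences lay inside the others' range. In bulk RNA of this kind, fewer cells of a type and less RNA per cell cannot be told apart.

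A gene was called when limma's adjusted p was under 0.05, the difference was at least 1 log2 unit, and the male and the female DBA/2J array shifted in the same direction. Of 22130 probe sets tested, 258 were called (1.17%), which placed DBA/2J at rank 8 of the 23 strains by number of calls (175 to 696). That rank counts liver transcripts too. Of 11147 genes tested besides a list of liver transcripts, 30 rose (0.269%) and 64 fell (0.574%). Most other strains had more than these 94 calls besides the liver list, with a range from 56 in BALB/CByJ to 151 in P/J. The only replicates of a strain are its male and its female pool, so these p-values measure the spread between such pools. A second limma fit with only 2 groups, in which the spread between the other strains enters the error, called 12 genes higher and 19 lower. The adjusted p of a gene in that fit is given below as the 2-group adjusted p. That fit treats all arrays as independent, although each strain gave 2 of them, DBA/2J included. Its p-values can therefore be too small for 1 strain set against the spread between strains.

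**Figure D1:**
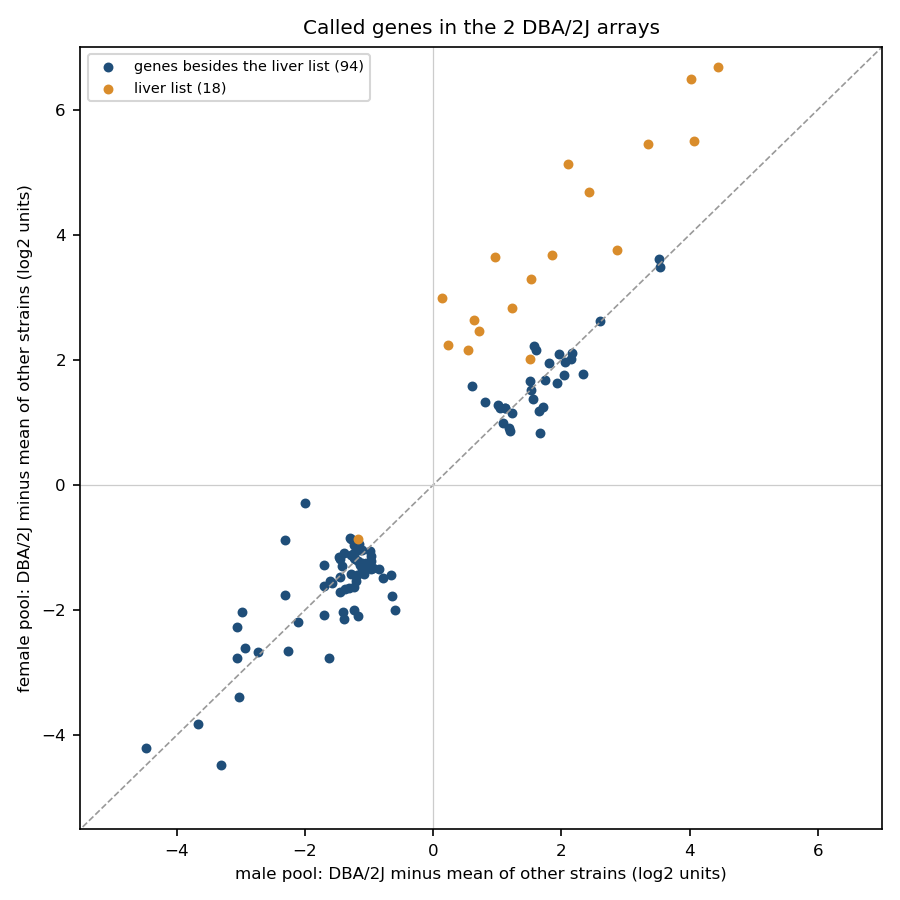
Each point is a called gene. The x axis gives the male and the y axis the female DBA/2J array minus the mean of the other strains' arrays of that gender, in log2 units, and the dashed line marks equal shifts. The 94 genes besides the liver list lie on both sides of the line, while the 18 called liver genes all lie above it.

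Liver transcripts were high in both DBA/2J arrays and higher in the female one. Of 62 tested genes of the liver list, 17 rose and 1 fell. Over all 11209 genes tested 0.999% were called, 0.419% higher and 0.58% lower. Among the 17, Fga, Fgb and Pzp passed the filter on low values (above 4 in at least 2 arrays) only through the DBA/2J arrays. Fga and Pzp, at no more than 3.83 and 3.99 in any other array, thereby had to differ, and the filter favoured a rise of Fgb. Alb, serum albumin, reached 7.64 in DBA/2J males and 10.12 in DBA/2J females, against 2.45, 2.70 and 8.36 (lowest, median and highest) in the others. Ttr, the thyroxine carrier transthyretin, had 8.32 and 9.94, against 3.03, 3.87 and 8.16. Both Alb values of C58/J, FVB/NJ and C3H/HeJ were also above 6, from 6.63 to 8.36, and the highest in any further strain was 3.66. The part of this liver signal in the changes described below was not tested directly. Without the genes that were over 1 log2 unit higher in the female than in the male DBA/2J array, 30 genes rose and 62 fell besides the liver list. That cut was chosen after seeing the data. It cannot measure the liver part, because the called liver genes Pzp and Serpina1b would pass it too.

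The largest rise besides the liver list was Stab2, stabilin-2, a scavenger receptor that clears hyaluronan and is known from sinusoidal endothelium. Stab2 stood at 6.27 in DBA/2J males and 6.38 in DBA/2J females, against 2.54, 2.59 and 6.72 in the others. The high arrays elsewhere were those of RIIIS/J, at 6.72 and 6.12, and the next strain mean was 2.66, in CBA/J. The difference was 3.56 ± 0.09 (SE, n = 2 DBA/2J arrays, adjusted p = 6.1e-21, 2-group adjusted p = 8.5e-05). Alb was at 2.47 in the male and 2.76 in the female RIIIS/J array. The Stab2 means of C58/J, FVB/NJ and C3H/HeJ were 2.64, 2.58 and 2.59.

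Klk8, the secreted serine protease neuropsin, had 7.36 and 7.38 in DBA/2J, against 2.84, 3.56 and 7.71 in the others. NZW/LacJ, with a mean of 7.48, and P/J, with 7.20, were equally high, and no other strain mean of Klk8 was above 4.14. The difference was 3.51 ± 0.18 (SE, adjusted p = 8.4e-14, 2-group adjusted p = 0.021). Pmp2, the fatty acid binding myelin protein P2 of Schwann cells, had 9.65 and 9.54 in DBA/2J, against 5.67, 8.01 and 8.79, so that both arrays were above all 44 others. Its difference was 1.90 ± 0.28 (SE, adjusted p = 3.3e-05), and the 2-group adjusted p was 0.13. Galc, the lysosomal enzyme that breaks down the myelin lipid galactosylceramide, had 7.33 and 7.41 in DBA/2J, against 2.597, 3.352 and 7.62. AKR/J, at a mean of 7.45, was above DBA/2J (difference 2.62 ± 0.22, SE, adjusted p = 1.8e-09, 2-group adjusted p = 1), and a further Galc probe set differed by -0.08.

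Rgs5, a regulator of G protein signalling and a marker of pericytes, had 11.16 and 11.25 in DBA/2J, against 8.22, 9.13 and 11.70. Its difference was 1.78 ± 0.16 (SE, adjusted p = 8.05e-09, 2-group adjusted p = 0.64). Rgs5 was the only call among 26 tested endothelial and mural cell genes (0.843% of all genes besides the liver list were called). Of these 26, 13 were above and 13 below 0, with a median of -0.009. 3 further Rgs5 probe sets also rose, by 3.59, 2.09 and 2.34, while CBA/J and AKR/J were as high as DBA/2J on the leading one, at means of 11.35 and 11.19. Cnmd, the cartilage protein chondromodulin, had 7.69 and 7.89, against 3.65, 6.46 and 8.01, and its strain means were spread between 3.70 and 7.79, with DBA/2J at the top (difference 1.71, adjusted p = 2.8e-08, 2-group adjusted p = 1). Bcat2, which transfers the amino group of branched-chain amino acids in mitochondria, had 6.25 and 6.03 in DBA/2J, against 3.08, 3.78 and 7.20, with 5 strains above it (difference 1.88, adjusted p = 9.0e-12, 2-group adjusted p = 1).

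Zfp936, a zinc finger gene, stood at 4.92 and 4.75 in DBA/2J and at no more than 3.24 in any other array (difference 2.08 ± 0.10, SE, adjusted p = 7.8e-15, 2-group adjusted p = 1.3e-22). Clca3a1, a chloride channel accessory gene, had 4.32 and 4.40 against a highest value of 3.47 elsewhere (difference 1.59, adjusted p = 1.5e-14). With a pseudocount of 8, the difference of Clca3a1 was 0.99 and it was no longer called. These 2 genes and Gm45351, at 4.89 and 5.46 against 3.01, 3.23 and 4.18, passed the filter on low values only through the DBA/2J arrays. Zfp936 and Clca3a1 thereby had to differ, and the filter favoured a rise of Gm45351. Of the 94 called genes 4 passed in this way, the last being Efcab6, which the naming rule did not take. 6330403K07Rik had 10.76 and 10.75, against 7.42, 8.56 and 10.67, and rose by 2.13 (adjusted p = 3.3e-12). Pisd-ps3, a pseudogene of phosphatidylserine decarboxylase, had 9.96 and 9.95, against 6.26, 8.01 and 9.07 (difference 2.01, adjusted p = 3.9e-10), and 2 of its further probe sets rose by 1.52 and 2.86, while another differed by 0.80 and was not called.

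Rpl14, Sfi1 and Cap1 were also among the largest rises. Rpl14, a ribosomal protein gene, had 8.13 and 7.16, against 2.83, 5.41 and 7.82 (difference 2.06, 2-group adjusted p = 0.63). Sfi1, which encodes a centrosome protein, had 4.01 and 5.09, against 2.19, 2.61 and 4.75 (difference 1.88, adjusted p = 9.7e-06). Cap1, an actin regulator, had 10.99 and 10.59 in DBA/2J, but the median of the others was already 10.36. Its difference of 2.03 fell to 0.37 when DBA/2J was set against the median of the other strain means, and its call was lost when either DBA/2J array was left out. Ribosomal protein genes such as Rpl14 have many processed copies in the genome, and the array may not tell their transcripts apart.

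Cpne8, a copine that binds phospholipids in the presence of calcium, showed the largest fall. It stood at 3.18 in DBA/2J males and 3.28 in DBA/2J females, against 3.00, 9.00 and 9.78 in the others. Strain means of Cpne8 formed 1 set between 3.05 and 3.56, which holds DBA/2J, BUB/BnJ, AKR/J, NZW/LacJ, SJL/J, BALB/CByJ and MRL/MpJ, and another between 8.90 and 9.77. The difference was -4.34 ± 0.13 (SE, adjusted p = 1.7e-19, 2-group adjusted p = 0.86). A further Cpne8 probe set fell by 1.50, and another was 0.58 higher, which was not called.

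Tmem45b, a transmembrane protein gene, had 7.37 and 6.97 in DBA/2J, against 6.02, 10.57 and 11.19. KK/HIJ was the only other strain with a Tmem45b mean under 10.05, at 6.07 (difference -3.21 ± 0.13, SE, adjusted p = 1.9e-16, 2-group adjusted p = 0.0086). Zzef1, which encodes a large zinc finger protein with an EF-hand, had 4.45 and 4.51, against 4.74, 7.55 and 8.45, below all other arrays (difference -2.91 ± 0.17, SE, adjusted p = 8.6e-13, 2-group adjusted p = 3.2e-05). By the same call rule Zzef1 was also lower in P/J. Further Zzef1 probe sets differed by 0.27 and -0.32 and were not called. Slc19a2, a thiamine transporter, had 5.10 and 3.93, against 5.69, 6.74 and 7.16, again with no overlap (difference -2.19 ± 0.20, SE, adjusted p = 9.5e-09, 2-group adjusted p = 1.1e-09). A further Slc19a2 probe set differed by -0.46 (adjusted p = 0.10), overlapped with other arrays and was not called. Rasl11b, a small GTPase of the Ras family, had 4.30 and 4.16, against 3.58, 6.23 and 7.10 (difference -1.89, adjusted p = 1.3e-05, 2-group adjusted p = 0.022). C3H/HeJ and CBA/J were called lower for Rasl11b as well.

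Among the other large falls, 1500011B03Rik had 5.09 and 4.002, against 4.26, 8.65 and 9.16 (difference -3.89, adjusted p = 3.9e-10), but a further probe set differed by -0.17 and was not called. 2010315B03Rik had 3.67 and 4.36, against 3.49, 7.02 and 7.64 (difference -2.77, adjusted p = 5.9e-08), and AI987944 had 3.06 and 4.12, against 3.31, 6.23 and 7.25 (difference -2.50, adjusted p = 6.4e-09). The leading probe sets of these 3 genes kept their calls in the 2-group fit. The same call rule also gave falls of 1500011B03Rik in NZO/HILtJ, of 2010315B03Rik in 129S1/Sv1mJ and CBA/J, and of AI987944 in NZW/LacJ and P/J. Sbsn, suprabasin of the epidermis, had 2.99 and 2.93, against 2.88, 5.92 and 7.11 (difference -2.71, adjusted p = 3.5e-10, 2-group adjusted p = 0.060). Zfp945, a zinc finger gene, had 2.97 and 2.87 against a median of 6.21, and Gm13306 had 3.17 and 3.39 against a median of 4.97. Their differences were -2.46 and -2.15, with a 2-group adjusted p of 1 for both. Further probe sets of Zfp945 differed by 0.40 and -0.03 and were not called.

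**Figure D2:**
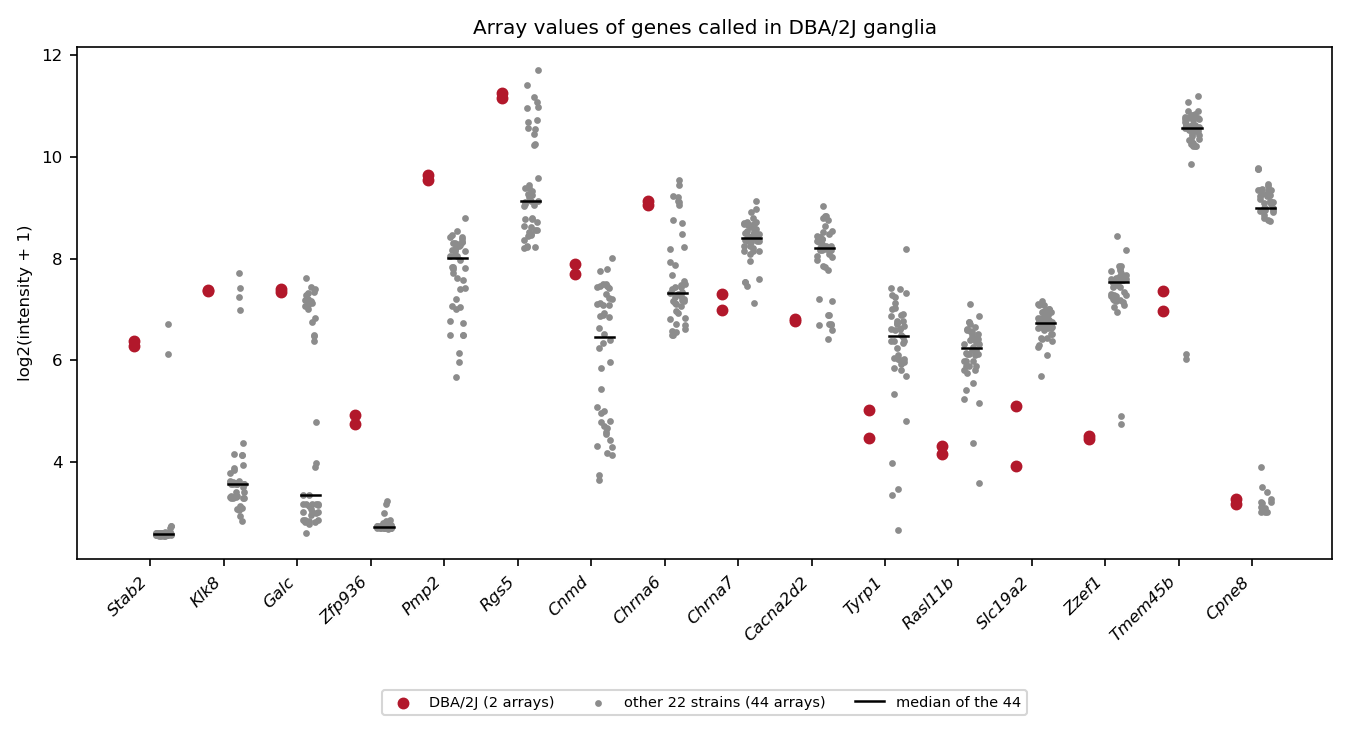
Log2(intensity + 1) of 16 called genes, with the 2 DBA/2J arrays in red at the left of each gene and the 44 arrays of the other strains in grey at the right, with their median as a line. Zfp936 and Pmp2 in DBA/2J lie above all other arrays and Slc19a2 and Zzef1 below them, while the other strains form 2 separate sets for Cpne8.

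Of 4 tested nicotinic acetylcholine receptor subunits, which form cation channels opened by acetylcholine, 1 rose and 1 fell (0.843% of all genes tested besides the liver list were called). Chrna6, the alpha6 subunit, had 9.13 and 9.05 in DBA/2J, against 6.49, 7.33 and 9.54. It was above DBA/2J in C3H/HeJ, at a mean of 9.49, and in NZO/HILtJ, at 9.18, and close to it in NZW/LacJ, at 9.08. The difference was 1.47 ± 0.18 (SE, adjusted p = 2.7e-06), a further probe set rose by 1.80, and the call was lost against all 24 other strains (adjusted p = 0.0672) and in the 2-group fit (0.84). Chrna7, the alpha7 subunit, had 7.31 and 6.997 in DBA/2J, against 7.12, 8.401 and 9.14, below all other arrays once values were centred within gender. It fell by 1.21 on the log2 scale (SE 0.21, adjusted p = 0.00057, 2-group adjusted p = 0.023), and without the female DBA/2J array the adjusted p was 0.076. Chrnb3, the beta3 subunit, was under the filter, at 2.39 and 3.65 in DBA/2J against 2.37 to 2.61 in the others.

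The serotonin receptors Htr1f and Htr3b were both lower in DBA/2J. Htr1f, a G protein coupled receptor also found in itch neurons, had 3.66 and 3.35, against 2.93, 4.83 and 6.55 (difference -1.16, adjusted p = 0.044), and a further probe set differed by -0.60 and was not called. Htr3b, a subunit of the serotonin-gated ion channel, had 2.45 and 2.58, against 2.39, 3.72 and 5.47 (difference -1.16, adjusted p = 0.016). Gabrb2, a subunit of the GABA-A receptor, had 4.74 and 4.53, against 3.93, 5.66 and 6.85 (difference -1.05, adjusted p = 0.016), and further probe sets differed by 0.11 and -0.23 and were not called. The calls of these 3 receptors were lost when either DBA/2J array was left out, and the 2-group adjusted p was 0.92 for Gabrb2 and 1 for the others.

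Cacna2d2, the alpha2delta2 subunit of voltage-gated calcium channels, had 6.77 and 6.82, against 6.42, 8.21 and 9.03. The difference was -1.20 ± 0.21 (SE, adjusted p = 0.00038, 2-group adjusted p = 0.80), with c57BL/6J and C58/J lower still, and a further, dimmer probe set differed by 0.0054. Nptx2, the secreted neuronal pentraxin that binds AMPA receptors, had 5.14 and 4.18, against 3.79, 6.94 and 8.52 (difference -1.76, adjusted p = 2.3e-05, 2-group adjusted p = 1). Camk4, a calcium-dependent protein kinase, had 3.38 and 3.66, against 3.19, 5.43 and 6.75 (difference -1.57, adjusted p = 2.9e-05, 2-group adjusted p = 1), and a further probe set differed by -0.01 and was not called. P2rx3, the ATP-gated channel of nociceptors, differed by 0.30 (adjusted p = 0.11) and P2rx2 by 0.40 (adjusted p = 0.68). Vamp3, a vesicle fusion protein, had 7.46 and 7.34, against 7.03, 8.75 and 9.37 (difference -1.14, adjusted p = 2.0e-05, 2-group adjusted p = 0.59). Dimmer Vamp3 probe sets differed by 0.0012, 0.0049, 0.021 and -0.15, none of them called.

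Most gene lists had no called member, as short lists mostly would at the share of calls over all genes. Of 62 gene lists besides the liver list, 41 had none (0.843% of all tested genes besides the liver list were called). Of the 94 called genes, 29 belonged to any list. The share of all tested genes in any list was not counted, so these 29 cannot be read as an excess or a lack. No gene was called among 11 sodium channel, 48 potassium channel, 14 TRP channel, 6 P2X receptor, 18 neuropeptide, 29 peptide receptor, 22 nerve injury and 74 oxidative phosphorylation genes. The median differences of these lists lay between -0.07 and 0.13, against -0.02 over all genes tested. Lists of markers of the non-peptidergic, the peptidergic and the large myelinated neurons also had no call among 11, 10 and 15 tested members.

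The Schwann cell, satellite glia and macrophage lists had 1 call each, of 31, 21 and 31 genes tested, against 0.843% of all genes besides the liver list. In the Schwann cell list 26 of 31 tested genes were above 0, with a median of 0.20, against 4970 of all 11209 genes, and Pmp2 alone was called. The mean level over this list was 9.21 and 9.00 in the male and female DBA/2J arrays, against 8.57, 8.92 and 9.14 in the others. Entpd2, an ATP-degrading surface enzyme of satellite glia, had 5.54 and 6.12, against 5.63, 7.03 and 7.70 (difference -1.08, adjusted p = 2.7e-05, 2-group adjusted p = 0.12), a call that ended when the male array was left out. In the macrophage list 24 of 31 genes were below 0, with a median of -0.12. Aif1, the macrophage protein also called Iba1, was its single call, at 3.70 and 4.62 against 3.88, 4.92 and 8.39 (difference -1.10, adjusted p = 0.043), and was lost under 10 of 13 alternatives. The cholesterol synthesis list had no call, although 24 of 26 genes were above 0 with a median of 0.15.

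Zinc finger genes, most of them DNA-binding regulators with many near relatives, had 2 higher and 6 lower of 249 tested, which is 3.21%, against 0.843% of all genes besides the liver list. Of the 2 rises, Zfp936 passed the filter only through the DBA/2J arrays and had to differ. Further probe sets of Zfp386, Zfp790 and Zfp945 were not called. Zfp277 had 5.95 and 5.81, against 5.85, 7.59 and 8.16 (difference -1.59 ± 0.17, SE, adjusted p = 2.8e-07, 2-group adjusted p = 0.0022). Zfp458 had 3.34 and 2.47, against 2.68, 3.69 and 6.05 (difference -1.21, adjusted p = 0.024), and lost its call in 5 alternatives, among them the one without the female array (difference -0.64). Of adhesion and guidance genes, the cadherin Cdh6 had 3.59 and 3.44, against 3.65, 4.72 and 5.44 (difference -1.14, adjusted p = 0.0070). The semaphorin Sema4c had 4.33 and 4.52, against 4.14, 5.54 and 6.45 (difference -1.02, adjusted p = 0.023). Both lost their call when either DBA/2J array was left out. Rps6, a ribosomal protein gene, had 4.896 and 5.06, against 4.78, 6.63 and 7.21 (difference -1.36, adjusted p = 1.9e-06, 2-group adjusted p = 0.33), and it was 1 of 2 calls among 53 ribosomal genes. Thrsp, the lipogenic gene that was the 1 fall in the liver list, had 5.74 and 6.10, against 5.54, 7.09 and 8.07 (difference -1.01, adjusted p = 0.028, 2-group adjusted p = 0.88), and a further probe set differed by -0.76 and was not called.

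Genes known for DBA/2J variants, or for classic variants between inbred strains, moved in part. Of 27 tested members of a list of such genes, 1 rose (Apoa2, a liver apolipoprotein) and 2 fell, Tyrp1 and Nnt, against 0.999% of all genes called. Tyrp1, the melanin enzyme, had 4.46 and 5.02 in DBA/2J, against 2.66, 6.48 and 8.19, with lower means in NZO/HILtJ and KK/HIJ (difference -1.50 ± 0.26, SE, adjusted p = 0.00057, 2-group adjusted p = 1). Without the male DBA/2J array its adjusted p was 0.11, while 2 further Tyrp1 probe sets fell by 1.13 and 1.09. Gpnmb, the other pigment gene with a known DBA/2J mutation, had 2.45 and 2.71, against 2.32, 2.68 and 4.79, and differed by -0.22 (adjusted p = 0.95). With a median of 2.68 in the other arrays, under the filter level of 4, Gpnmb had little room to fall. Myo5a, the motor protein behind the dilute coat, differed by -0.62 (adjusted p = 0.0068), Cd44 by -0.59 (adjusted p = 0.0044), Glo1 by 0.57 (adjusted p = 0.00014) and Alad by 0.56 (adjusted p = 0.0023), all short of 1 log2 unit on the leading probe set. None of them had a 2-group adjusted p under 0.05, the lowest being 0.16 for Myo5a. There, 5 strains were above DBA/2J for Glo1 and 5 for Alad, and P/J was below it for Myo5a and Cd44. A further Glo1 probe set rose by 1.27 (adjusted p = 1.6e-05). H2-Ea, an MHC class II gene, differed by 0.78 on its leading probe set and by 4.22 on a further one, where DBA/2J had 7.49 and 7.85, against 2.595, 2.650 and 8.24. Pttg1 differed by 0.82 on its leading probe set (adjusted p = 0.32) and by 1.06 on a further one, which was called.

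A run of neighbouring genes on chromosome 13 held several called probe sets, in both directions. In the order of the GRCm38.p6 annotation it holds Nnt, Paip1, 4833420G17Rik, 3110070M22Rik and Tmem267. 4833420G17Rik, 3110070M22Rik, Paip1 and Hmgcs1 are named here after their values were seen. Nnt, the mitochondrial nicotinamide nucleotide transhydrogenase, had 7.02 and 5.72 in DBA/2J, against 6.28, 7.82 and 8.56 (difference -1.30 ± 0.22, SE, adjusted p = 0.00028, 2-group adjusted p = 0.37). Without the female DBA/2J array the Nnt difference was -0.60 (adjusted p = 0.52), and a further Nnt probe set differed by -0.54 (adjusted p = 0.054), with 6 strains lower than DBA/2J. Tmem267, a transmembrane protein gene, had 3.38 and 4.22, against 3.75, 7.01 and 8.27 (difference -2.66 ± 0.27, SE, adjusted p = 7.9e-08, 2-group adjusted p = 0.60).

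4833420G17Rik had 5.64 and 5.43 in DBA/2J, against 5.17, 7.58 and 8.03 (difference -1.65, adjusted p = 8.9e-08), and 2 further probe sets fell by 1.25 and 1.81. Paip1, which encodes a partner of the poly(A)-binding protein, was called higher on 2 dimmer probe sets, by 2.41 and 1.56, while its leading probe set differed by 0.07. The noncoding 3110070M22Rik differed by -0.04 and was not called. Hmgcs1, an enzyme of cholesterol synthesis that lies next in the run with a probe set tested, differed by 0.17 and was not called. The lowest strain means of Tmem267 were those of DBA/2J at 3.80, C3H/HeJ at 4.05, RIIIS/J at 4.19, CBA/J at 4.29, BTBT T+tf/J at 4.31, NZO/HILtJ at 4.33 and 129S1/Sv1mJ at 4.48, and the next was C57BR/cdJ at 6.37. These same 7 strains had the lowest means of 4833420G17Rik, from 5.54 in DBA/2J to 6.11 in 129S1/Sv1mJ, with 7.45 in the next strain. They also had the highest means of the brighter called Paip1 probe set, from 7.15 in 129S1/Sv1mJ to 7.73 in CBA/J, against at most 5.10 in the others. c57BL/6J, whose Nnt is known to carry a deletion, had 7.84 for Tmem267 and was not among them. On the further Nnt probe set the 7 strains and c57BL/6J had the lowest means. They ran from 6.34 in BTBT T+tf/J to 6.71 in C3H/HeJ, with 6.88 in SWR/J next. On the leading Nnt probe set c57BL/6J had 6.69, while BTBT T+tf/J, at 7.41, was above SJL/J, at 7.38.

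**Figure D3:**
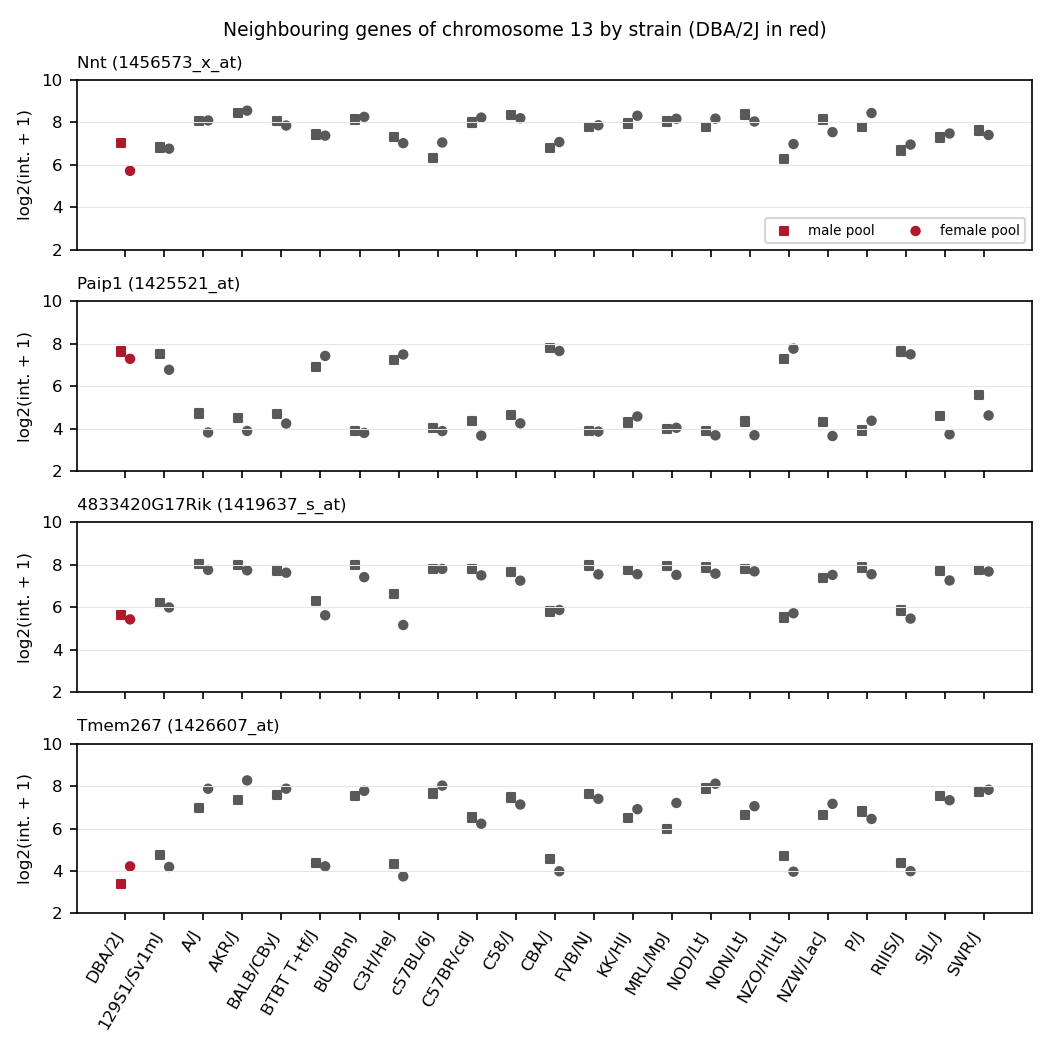
Log2(intensity + 1) of 1 probe set each of Nnt, Paip1, 4833420G17Rik and Tmem267, in genome order from top to bottom, with a square for the male and a circle for the female pool of each strain and DBA/2J in red at the left. Paip1 is high, and 4833420G17Rik and Tmem267 are low, in DBA/2J, 129S1/Sv1mJ, BTBT T+tf/J, C3H/HeJ, CBA/J, NZO/HILtJ and RIIIS/J.

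The start regions of the 2 genes of this run whose lowest strain means were in the same strains are shown because they lie near each other on the same strand. They are RefSeq sequences of GRCm38.p6, 250 bases before to 50 after the annotated start, from the reference strain and not from DBA/2J. The region of 4833420G17Rik is chr13:119462509-119462808 and that of Tmem267 is chr13:119487836-119488135, the first of 2 starts listed, both on the + strand. Capitals mark the motif GGGCGG (GC box) on either strand, and TATAAA and CCAAT were searched on both strands as well. Neither of those 2 motifs is in these windows, while GGGCGG occurs once in each.
4833420G17Rik: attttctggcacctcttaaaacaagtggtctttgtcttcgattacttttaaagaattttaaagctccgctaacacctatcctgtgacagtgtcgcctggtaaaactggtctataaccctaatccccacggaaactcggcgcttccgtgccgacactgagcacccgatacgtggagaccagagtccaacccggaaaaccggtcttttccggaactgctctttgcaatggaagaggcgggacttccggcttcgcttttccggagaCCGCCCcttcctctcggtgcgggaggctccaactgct
Tmem267: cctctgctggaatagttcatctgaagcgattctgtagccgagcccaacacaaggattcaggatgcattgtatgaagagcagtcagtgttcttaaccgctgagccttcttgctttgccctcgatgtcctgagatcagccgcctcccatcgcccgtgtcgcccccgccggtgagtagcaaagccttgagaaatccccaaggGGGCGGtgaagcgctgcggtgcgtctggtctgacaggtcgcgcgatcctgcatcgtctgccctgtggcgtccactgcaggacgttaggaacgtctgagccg
Of 32851 such regions of the mouse, 35.7% hold GGGCGG, 37.4% CCAAT and 13.6% TATAAA on either strand.

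Xaf1 and Pdxdc1 had probe sets that moved in opposite directions. Xaf1, an interferon-induced gene that promotes cell death, had 4.65 and 5.47 on its leading probe set in DBA/2J, against 4.61, 7.27 and 8.12 (difference -2.04, adjusted p = 1.2e-07, 2-group adjusted p = 0.072). A further Xaf1 probe set was 4.27 higher, with strain means of 8.38 in DBA/2J, 9.18 in BTBT T+tf/J, 8.15 in P/J and 8.04 in 129S1/Sv1mJ, and no other mean above 3.74. The same 4 strains had the 4 lowest means on the leading probe set. Pdxdc1, a decarboxylase-like gene, had 3.33 and 2.85 on its leading probe set in DBA/2J, against 2.81, 7.83 and 8.50 (difference -3.74, adjusted p = 2.2e-17, 2-group adjusted p = 0.57). 2 dimmer probe sets differed by -0.59 and -0.54 and were not called. On a further one it was 4.30 higher, with means of 8.49 to 8.94 in DBA/2J, BALB/CByJ, C3H/HeJ, CBA/J, KK/HIJ and RIIIS/J and of at most 3.16 elsewhere. These 6 strains were also the 6 lowest on the leading Pdxdc1 probe set. Each such probe set reports a short stretch of the transcript, so the gene's total level is not settled by either.

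**Figure D4:**
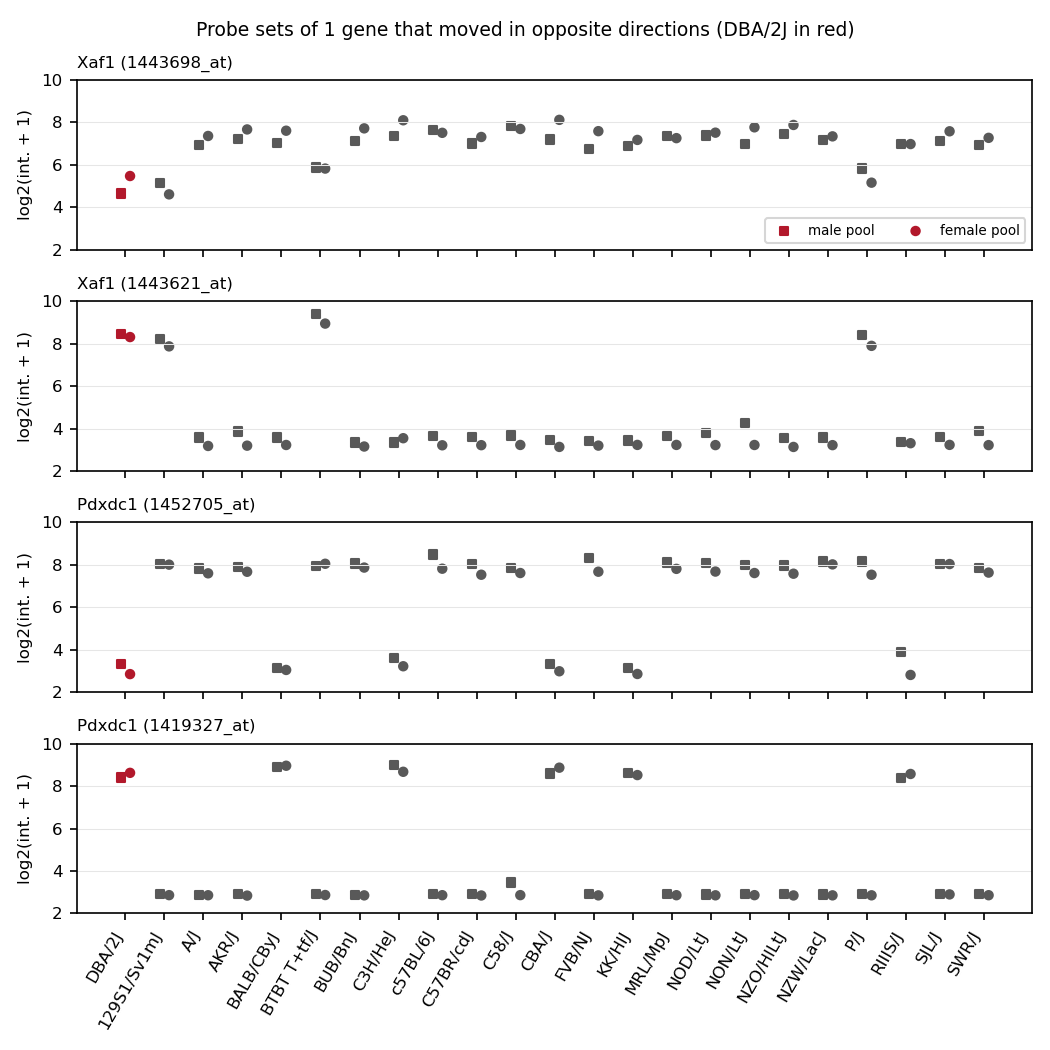
Log2(intensity + 1) of 2 probe sets each of Xaf1 and Pdxdc1, with a square for the male and a circle for the female pool of each strain and DBA/2J in red at the left. In DBA/2J and the strains that share its pattern, 1 probe set of the gene is low while the other is high.

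Opposite calls of this kind were rare. Of the 94 called genes, 38 had a further tested probe set. For 13 of them a further one was called in the same direction, for 2, Xaf1 and Pdxdc1, in the opposite direction, and for 23 none was called.

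Among the 94 genes, 8 of those that rose had both gender-centred DBA/2J arrays above all 44 others, but 4 of these 8 passed the filter only through the DBA/2J arrays. Of these 4, Zfp936 and Clca3a1 had no other array above the filter and had to lie there. The filter also favoured Gm45351 and Efcab6, whose highest other arrays were at 4.176 and 4.177. Of those that fell, 10 had both arrays below. Over all tested genes, 0.143% were above and 0.259% below. By chromosome, the share of tested genes that were called was highest on chromosome 7, with 15 of 789 (1.9%), and lowest on chromosome 6, with 1 of 575 (0.174%), against 0.843% of all genes besides the liver list.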

How the data were processed

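The authors deposited a linear intensity for every probe set of every array. Per the submitters' processing notes, GCRMA was run under R 2.6.2. They ran from 1.629 to 24173.874 in the 46 arrays used. The lowest value was 1.629 to 1.655 in the male and 1.726 to 1.744 in the female arrays, so gender was kept as a term. Log2(value + 1) was analysed. Control probe sets (64) were left out, and a probe set was tested when it was above 4 in at least 2 of the 46 arrays. limma 3.58.1 in R 4.3.3 fitted 23 strain means plus gender, with Benjamini-Hochberg adjustment over the 22130 probe sets tested. The brightest probe set with 1 symbol stood for a gene. Names are GEO's platform annotation, of which 34741 of 34945 symbols matched RefSeq (GRCm38.p6), the source of the promoters too. The script was tested on simulated data.

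Named genes are Chrna6, Chrnb3, P2rx2, P2rx3, genes known for variants in DBA/2J or between inbred strains, and the 15 largest rises and falls. Up to 4 called members of each list (6 for liver) and 5 genes by gender were added. The members and lists were chosen with earlier results of these data known. The number of arrays limits the precision.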

Additional observations from a re-analysis of the deposited data

Results flagged for a closer look

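A limma term for the DBA/2J difference in males minus that in females passed for 14 genes (0.125%), and 11 of them were in the liver list, all higher in the female array. Each side is a single DBA/2J array, so the p-values rest on the spread between the male and female arrays of the other strains. The 6 largest were Cyp3a11 (-3.02), Hpx (-2.86), Apoa1 (-2.68), Alb (-2.25), Apoa2 (-2.24) and Fabp1 (-2.10), in log2 units. Cyp3a11 reached 4.56 in DBA/2J males and 7.29 in DBA/2J females, and Hpx 2.83 in males and 5.72 in females. Each gender is 1 pool of 3 mice, so gender and pool cannot be told apart. The other 3 genes were Gypc, the erythrocyte glycophorin C (1.41), Snhg7 (-0.97) and H2-M9 (-0.88).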

How the results depend on the processing

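With 2 groups, and so the spread between strains in the error, 79 probe sets were called. Besides the liver list 12 genes rose and 19 fell in that fit, and 30 of the 56 called genes named lost their call. It treats arrays of 1 strain as independent, so its counts can be too high. With no minimum difference 521 probe sets were called, and with a minimum of 2 log2 units 82. With the liver list left in, 47 genes rose. With a filter at a log2 intensity of 6, 8 liver genes rose. Leaving out 1 array at a time gave 190 to 263 probe sets, 27 to 32 genes higher, 46 to 65 genes lower and 10 to 19 liver genes higher. The lowest probe set, fall and liver counts came without the female DBA/2J array. The other alternatives kept the counts within 1.5 times.

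Of the 56 genes, 21 kept their call in every alternative fit that tested them, and 17 also on every further tested probe set. The filter at a log2 intensity of 6 tested only 45 of the 56. The 21 include liver genes such as Alb and Ttr. They also include Zfp936 and Gm45351, which passed the main filter only through the DBA/2J arrays. Further probe sets turned the sign of Pdxdc1 (4.30), Xaf1 (4.27), Galc (-0.0799), Gabrb2 (0.11), Cpne8 (0.58), Vamp3 (0.0012, 0.0049 and 0.021), Zzef1 (0.27), Zfp945 (0.40) and Cacna2d2 (0.0054); the cause was not tested. No paired analysis was possible because the replicate numbers stand for gender, which is already a term. The test of DBA/2J by gender gave 25 probe sets, 25 against all 24 strains and 29 after quantile normalization. Values near the array's lowest intensities have little room to fall. Leaving out probe sets that can bind related transcripts, and leaving out genes higher in the female array, were chosen after seeing the data and gave 26 and 30 genes higher and 58 and 62 lower.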
